A study of Bos taurus with 20 samples.

Results

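SYNE2 encodes nesprin-2, a very large protein of the outer nuclear membrane. Its C-terminal KASH domain binds SUN proteins of the inner nuclear membrane in the space between the membranes, and its giant form binds actin at the other end. The resulting bridge, the LINC complex, couples the nucleus to the cytoskeleton and is known for anchoring and moving nuclei. In cattle the conceptus, which is the embryo with its surrounding trophoblast and other membranes, passes from an ovoid to a tubular and then to a filamentous form before it attaches.

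The SYNE2 locus, 1 of 27607 annotated genes, was chosen by its identifier, ENSBTAG00000025450, because its counts differed between IL6 and control conceptuses and between title codes in earlier results of these same data. Its IL6 and title-code differences are therefore given as descriptions, without a test. The gene lies on the plus strand of chromosome 10, from 76116422 to 76386867 on the assembly ARS-UCD1.2. The files pair no symbol with it. In the RefSeq annotation of a later assembly, ARS-UCD2.0, SYNE2 lies on chromosome 10 beyond SGPP1 and an unnamed locus, LOC100850347, and is followed by ESR2, whose model starts before that of SYNE2 ends. The name rests on that position alone.

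Whole bovine conceptuses were sequenced as 1 library each, 20 in all, after depletion of ribosomal RNA. Embryos made by fertilisation in vitro received recombinant bovine interleukin 6 (IL6, a cytokine) at 100 ng/ml, or its carrier as control, on day 5, and culture went on in those drops up to blastocyst collection on day 7.5. The groups held 6 ovoid control (3 male, 3 female), 6 ovoid IL6 (2 male, 4 female), 4 tubular control (3 male, 1 female) and 4 tubular IL6 conceptuses (2 male, 2 female), with no age at recovery or breed given in the labels. The titles begin with a code that the labels leave unexplained. All conceptuses of c201, c5036 and c8086 are controls and all those of c6186 and c9007 received IL6, so treatment is nested within the code and a code's own difference and the IL6 difference cannot be told apart. The spread used here is that between conceptuses, and those of 1 code may not be independent of each other.

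Totals assigned to genes ran from 329666 to 13940103 per library. The lowest total was ovoid control replicate 3, a library that stands apart in depth. Of the 60 other long genes tested below, 19 had their highest CPM there. No share over all tested genes is given for this, so the count does not set long genes apart from others. Values without this library are given where they change what is described. The 6 libraries of c6186 had 2298491 to 6262473 counts and the 4 of c9007 had 8589036 to 11366747. Mitochondrial genes took a mean of 2.70% of counts in c6186, 2.55% in c9007, 1.26% in c201, 2.34% in c5036 and 1.87% in c8086. The labels give no RNA integrity values. Markers of trophoblast, epiblast, hypoblast, mesoderm and uterine or blood cells, and partners of SYNE2 in the LINC complex, could not be looked up without symbols, so the cell makeup was not checked. In whole conceptuses, fewer cells of a type and less RNA per cell cannot be told apart.

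The locus is an extreme in transcript size. Its annotated exons merge to 21570 bases (Length), in 115 exon blocks over a span of 270446 bases, so that exons cover 7.98% of the span. Among the 27607 genes, 2 had a greater Length and 1 had more exon blocks, whereas the median Length of the 14875 genes with enough counts to be tested was 2341 bases. Because a long transcript gathers more fragments, the locus ranked 1686th of 14875 by mean CPM (131), the count scaled to the size of the library. In TPM, which also divides by Length, its mean level was 11.8, below the median of 21.2 over the tested genes, and it ranked 9371st.

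The SYNE2 level was at most 92.2 CPM in all controls. In ovoid controls of code c201 the level was 42.7, 57.4, 79.0 and 47.1 CPM in replicates 1 to 4, and in those of code c5036 it was 75.8 and 62.1 CPM in replicates 5 and 6. The value of 79.0 came from the shallow library, where it rests on 27 counts, with an exact 95% Poisson interval of 52.0 to 115 CPM that covers counting error only. The tubular controls had 62.1 and 56.5 CPM in code c5036 and 92.2 and 64.1 CPM in code c8086. Ovoid and tubular controls overlapped, at 60.7 ± 14.7 CPM (SD, n = 6) and 68.7 ± 16.0 CPM (SD, n = 4). Without the shallow library the ovoid controls were at 57.0 ± 13.1 CPM (SD, n = 5).

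In IL6 conceptuses the level differed by title code. The 4 ovoid IL6 conceptuses of code c6186 had 184, 290, 297 and 380 CPM in replicates 1 to 4, and the 2 of code c9007 had 85.4 and 71.6 CPM. The tubular IL6 conceptuses had 250.2 and 220.4 CPM in code c6186 and 119 and 80.3 CPM in code c9007. All 6 libraries of c6186, of both shapes and both sexes, thus lay above the other 14 libraries. The lowest of them was 1.55 times the highest of the others, tubular IL6 replicate 3 of c9007. In TPM the locus was at 24.5 ± 6.96 (SD, n = 6) in c6186 and 6.38 ± 2.05 (SD, n = 14) elsewhere.

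**Figure D1:**
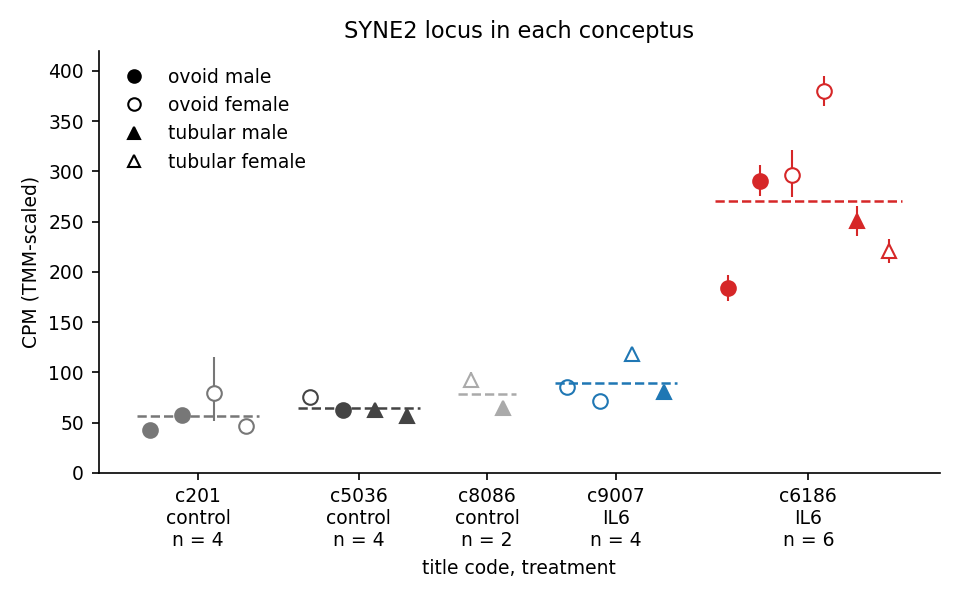
SYNE2 level in CPM (vertical axis, from 0) in each of the 20 libraries, grouped by title code and treatment. Circles are ovoid and triangles tubular conceptuses, filled for males and open for females, bars are exact 95% Poisson intervals of the count and dashed lines are code means; the 6 c6186 libraries sit between 184 and 380 CPM and the other 14 between 42.7 and 119 CPM.

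Ordered by code, mean SYNE2 levels were 56.5 ± 16.2 CPM in c201 (SD, n = 4), 64.1 ± 8.21 in c5036 (SD, n = 4), 78.2 in c8086 (n = 2), 89.0 ± 20.5 in c9007 (SD, n = 4) and 270 ± 68.5 in c6186 (SD, n = 6). Each neighbouring pair among the first 4 codes overlapped in range, and only c6186 did not overlap with its neighbour. The c6186 mean was 3.04 times that of c9007 and 4.23 times that of the 10 controls (63.9 ± 14.9 CPM), while the c9007 mean was 1.39 times that of the controls. By rank of CPM within a library, the gene stood at 322 to 1165 in c6186 and at 1813 to 5082 in the other libraries. The c6186 libraries were shallower than those of c9007, and the part of depth in the difference was not tested. Ovoid control replicate 4, with a total of 5197824 inside the c6186 range, had 47.1 CPM. It is 1 library and also differs from c6186 in code and treatment, so depth cannot be told apart from these there.

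The IL6 differences were modelled over all libraries. With edgeR, the log2 fold change of IL6 over control was 1.84 ± 0.38 (SE) in ovoid and 1.26 ± 0.46 (SE) in tubular conceptuses, and 1.55 ± 0.30 (SE) averaged over the shapes. Without the 6 libraries of c6186 these values were 0.20 ± 0.25, 0.44 ± 0.24 and 0.32 ± 0.18 (SE), each carried by 2 IL6 conceptuses per shape. Within the 10 IL6 conceptuses, with terms for shape and sex, the log2 fold change of c6186 over c9007 was 1.69 ± 0.26 (SE).

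Shape and sex had no part in the choice of the gene and were tested. Among controls, tubular minus ovoid was 0.23 ± 0.42 on the log2 scale (SE, edgeR adjusted p = 0.99983). The 95% interval of -0.59 to 1.04 leaves room for a 2-fold difference. Its SE comes from 1 spread fitted to all 20 libraries, so interval and p rest partly on the IL6 groups and not on controls alone. Log2 CPM had an SD of 0.36 in ovoid and 0.31 in tubular controls, against 1.01 in ovoid and 0.77 in tubular IL6 conceptuses. The value was 0.08 without tubular control replicate 3, 0.04 without c8086, 0.002 without c201 and 0.49 without c5036, with edgeR adjusted p of 0.99983 or more. All conceptuses of c201 are ovoid and all those of c8086 tubular. Without c5036 the value therefore sets c8086 against c201, where shape and code cannot be told apart. Of all 14875 genes 0 passed an adjusted p under 0.05 in that contrast with edgeR and 0 with DESeq2, against 244 (1.64%) at an unadjusted p under 0.05. In the codes that hold both shapes, ovoid and tubular values were 75.8 and 62.1 against 62.1 and 56.5 CPM in c5036, 85.4 and 71.6 against 119 and 80.3 CPM in c9007, and 288 ± 80.4 CPM (SD, n = 4) against 250.2 and 220.4 CPM in c6186. The higher tubular value thus met the lower ovoid value in c5036, both tubular values lay inside the ovoid range in c6186, and 1 of the 2 lay above both ovoid values in c9007.

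Males averaged 115 ± 91.4 CPM and females 147 ± 113 CPM (SD, n = 10 each), and ranged from 42.7 to 290 and from 47.1 to 380. The log2 difference, male minus female with groups held constant, was -0.15 ± 0.29 (SE; edgeR adjusted p = 0.965), with a 95% interval of -0.72 to 0.42. It ran from -0.04 without ovoid IL6 replicate 4 to -0.30 without tubular IL6 replicate 1. Outside c6186 the 7 males had 60.7 ± 11.2 CPM and the 7 females 81.4 ± 21.7 CPM (SD), and the difference without that code was -0.39 ± 0.17 (SE; edgeR adjusted p = 0.372). Females were higher on average under both settings, but neither value passed the threshold, which 8 of 14875 genes (0.0538%) passed between the sexes with edgeR. The female libraries outside c6186 include the shallow one and 3 of the 4 of c9007.

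The remaining long genes show how far the SYNE2 difference was shared. Besides SYNE2, 73 genes have a Length over 12000. Of these 60 had enough counts to be tested and 13 did not, so values below are for the 60. Their log2 fold changes for IL6 over control, averaged over shapes, had a median of 0.22, with 41 of 60 positive, whereas the median of all 14875 genes was -0.004, with 7369 positive. The long genes' median was 0.22 in ovoid conceptuses (38 of 60 positive) and 0.34 in tubular ones (39 of 60). Single libraries moved these medians. Without the shallow ovoid control replicate 3, the averaged and ovoid medians were 0.37 (44 of 60 positive) and 0.36 (42 of 60). Without ovoid control replicate 4 the ovoid median was 0.08 (32 of 60), and without tubular IL6 replicate 1 the averaged and tubular medians were 0.10 and 0.16. For c6186 over c9007 the median was 0.35 over the 58 long genes in that fit (41 positive), against 0.02 over all 14338 genes. SYNE2 had 1.55 and 1.69 in the averaged and the title-code contrast, so the typical long gene leaned in the same direction with a far smaller difference. Since SYNE2 was chosen for its difference, a smaller median in genes not so chosen is a description only. Over the 22 genes with Length over 15000 the medians were 0.34 averaged, 0.32 in ovoid and 0.43 in tubular conceptuses. For c6186 over c9007 it was 0.36 over 21 genes.

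With edgeR, 0 of the 60 long genes and 0 of all 14875 genes passed an adjusted p under 0.05 in the averaged IL6 contrast. At an unadjusted p under 0.05, 19 of the 60 were higher in IL6, where 1171 genes (7.87%) of all tested were. Lower in IL6 at that level were 4 of the 60, where 420 genes (2.82%) of all tested were. DESeq2 called 2 of the 60 higher and 0 lower at an adjusted p under 0.05, against 0.78% and 0.182% of all tested. In ovoid conceptuses alone 14 of the 60 were higher at an unadjusted p under 0.05 with edgeR (5.33% of all tested), and in tubular ones 5 (1.92%). Between the 2 IL6 codes, 12 of 58 long genes were higher in c6186 at that level with edgeR, against 12% of all tested; edgeR called 57 genes (0.398%) at an adjusted p under 0.05, none of these 58, and DESeq2 called 10 of 58 higher, against 6.2% of all tested.

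The size of SYNE2's own difference, by which it was chosen, is set beside theirs as a description. A log2 fold change above that of SYNE2 was found for 5 of the 60 long genes in the averaged IL6 contrast and for 4 of 58 in c6186 over c9007. Over all tested genes it was found for 151 of 14875 and for 456 of 14338, a smaller share in both contrasts. Among genes at least as abundant as SYNE2 it was found for 0 of 1686 and for 3 of 976. Of the 37 long genes with a mean count of at least 100, only 1 had a log2 fold change of 1 or more in each contrast, at 1.80 and 1.12. Most of the long genes above SYNE2 were thus thinly counted. The ratio of mean CPM in c6186 to that in the other 14 libraries was 3.80 for SYNE2. Over the 60 long genes that ratio had a median of 1.13 and ran from 0.164 to 11.4. It was 2 or more in 9 of them, and 6 of those 9 had a mean count under 100. No share over all tested genes is given for this ratio, so its counts do not set long genes apart from others. Among the 37 long genes with a mean count of at least 100, 3 reached a ratio of 2 and 1 exceeded SYNE2, at 4.04. Above SYNE2 in ratio, the other 3 long genes had mean counts under 100. Without the shallow library the ratio was 3.84 for SYNE2 and had a median of 1.34 over the 60, of which 10 were at 2 or more and 4 above SYNE2.

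**Figure D2:**
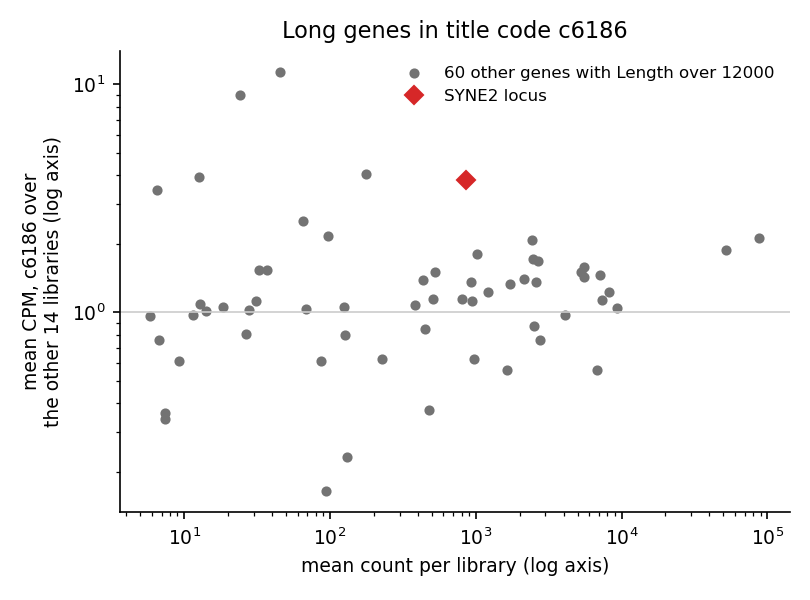
Ratio of mean CPM in the 6 c6186 libraries to mean CPM in the other 14 (vertical, log axis) against mean count per library (horizontal, log axis), with 1 point per tested gene with Length over 12000. SYNE2, at 3.80, stands above all but 1 of the 37 others that average at least 100 counts, and the ratios of thinly counted genes spread most, from 0.164 to 11.4 over all 60.

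The 2 genes longer than SYNE2 leaned in its direction, but their c6186 values overlapped with those of the other libraries. On chromosome 3, from 106591094 to 106927295, a gene with a Length of 22749 had 1228 ± 392 CPM in c6186 (SD, n = 6) and 837 ± 120 CPM elsewhere (SD, n = 14), with overlapping ranges of 627 to 1728 and 615 to 1062. Its log2 fold change of c6186 over c9007 was 0.50 ± 0.29 (SE). On chromosome 2, from 44434401 to 44651653, a gene with a Length of 25931 and 176 exon blocks had 15.9 ± 4.78 CPM in c6186 and 6.32 ± 2.93 CPM elsewhere, again overlapping, with a log2 fold change of 1.07 ± 0.32 (SE). Neither passed an adjusted p under 0.05 with edgeR for c6186 over c9007 (0.361 and 0.113), and 0 of the 58 long genes in that fit did. For IL6 over control averaged over shapes, their log2 fold changes were 0.41 ± 0.19 and 1.05 ± 0.32 (SE) in the same order, where SYNE2 had 1.55.

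By rule, the long genes with the largest IL6 differences and an average log2 CPM of 1 or more were named. ENSBTAG00000016784 (chromosome 2, Length 12175) and ENSBTAG00000011237 (chromosome 23, Length 12662) had averaged log2 fold changes of 2.54 ± 0.77 and 2.38 ± 0.78 (SE). Both were sparse outside c6186, at 1.46 ± 2.19 and 1.98 ± 1.98 CPM (SD, n = 14), against 13.1 ± 6.45 and 22.6 ± 9.77 CPM in c6186 (SD, n = 6). ENSBTAG00000008505 (chromosome 11, Length 14179) and ENSBTAG00000010716 (chromosome 6, Length 12276) had -2.16 ± 0.84 and -1.73 ± 1.04 (SE). In ENSBTAG00000016784 the shallow library had 8.77 CPM, and the other 9 controls had 0.880 ± 0.464 CPM (SD). The control levels of ENSBTAG00000008505 and ENSBTAG00000010716 varied widely, at 22.3 ± 32.3 and 16.9 ± 25.6 CPM (SD, n = 10), so long genes also lay far on the other side of 0.

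Fold changes moved with Length over the whole range of genes. In the averaged IL6 contrast the median was -0.09 over 2174 genes of up to 1000 bases, -0.07 from 1000 to 2000 bases (3953 genes), 0.01 from 2000 to 4000 (5939), 0.10 from 4000 to 8000 (2496), 0.21 from 8000 to 12000 (252) and 0.22 above 12000 (60). For c6186 over c9007 the same classes had 0.11, -0.06, 0.01, 0.10, 0.19 and 0.35, so that the shortest genes were also above 0 there. With c6186 left out, the averaged IL6 medians became -0.11, -0.01, 0.01, 0.03, 0.06 and -0.01, and the class above 12000 had 30 of 63 genes positive. With c9007 left out they were -0.12, -0.16, -0.03, 0.08, 0.22 and 0.25. The medians above 8000 bases were thus near 0 without c6186 and near their full value without c9007. Without the shallow library the averaged median above 12000 was 0.37 and that from 8000 to 12000 was 0.21. Length, the number of exon blocks and the span of genes rise together, and in the averaged contrast genes over more than 200000 bases of genome had a median of 0.18 and those with more than 60 exon blocks 0.24. Genes with a single exon block (n = 1335) did not follow this order: their median was 0.11, and 0.34 for c6186 over c9007, where the genes with more than 60 exon blocks had 0.38.

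**Figure D3:**
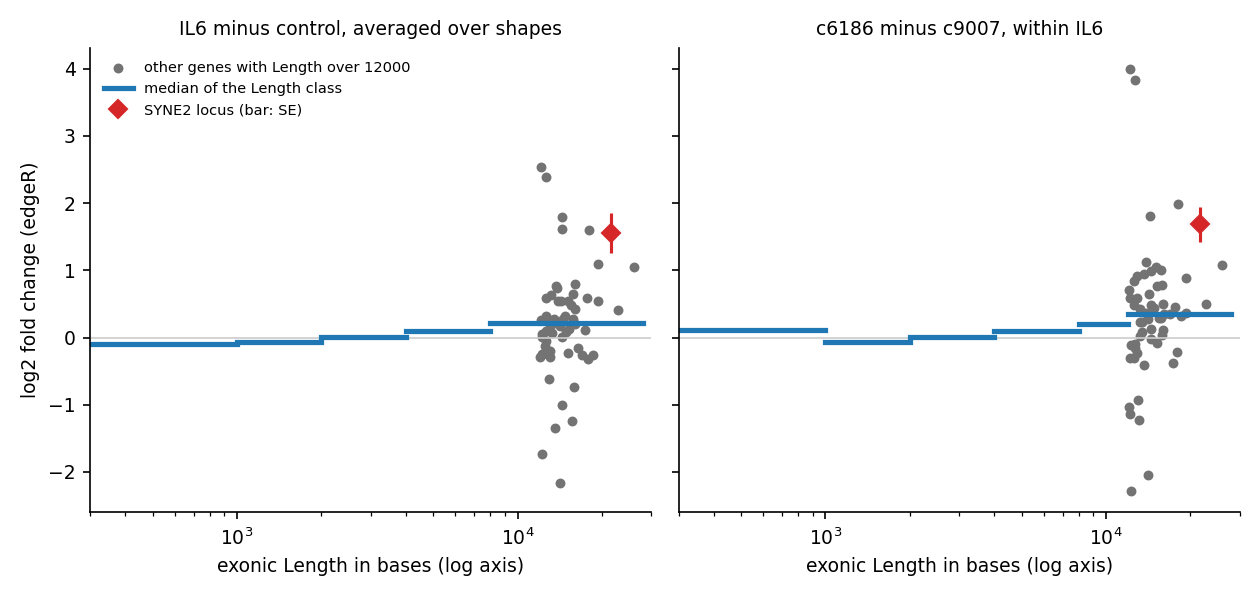
Log2 fold change (vertical) against exonic Length in bases (horizontal, log axis) for IL6 over control averaged over shapes (left) and c6186 over c9007 (right). Blue segments are the medians of Length classes, grey points the other tested genes with Length over 12000 and the red diamond SYNE2 with its SE; medians of the longest class are 0.22 and 0.35, and SYNE2 lies at 1.55 and 1.69.

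As a measure per library that leaves SYNE2 out, the share of all counts in other genes with Length over 12000 was compared. It was 2.46 ± 0.342% in ovoid control and 3.52 ± 1.27% in ovoid IL6 conceptuses (SD, n = 6 each; two-sided exact permutation p = 0.0346, 0.0693 adjusted over 4 contrasts). In tubular conceptuses it was 2.86 ± 0.211% and 3.77 ± 1.32% (SD, n = 4 each; exact permutation p = 0.343, adjusted 0.457). In code c6186 it was 4.25 ± 1.22% (SD, n = 6) and in c9007 2.68 ± 0.143% (SD, n = 4; exact permutation p = 0.0190, adjusted 0.0693). Tubular minus ovoid conceptuses differed by 0.33 percentage points (n = 8 and 12; exact permutation p = 0.484, adjusted 0.484). These and the permutation tests below exchange conceptuses, so each p measures the spread between conceptuses and not that between codes. Both c6186 and c9007 are single codes, and conceptuses of the same code may not be independent. No contrast passed the threshold after adjustment. Single libraries moved the ovoid IL6 contrast both ways. Its adjusted p was 0.0346 without ovoid control replicate 5 and 0.139 without ovoid IL6 replicate 2 (exact permutation).

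Most of that share lay in 2 very abundant genes, a gene of Length 13869 on chromosome 2 (26888630 to 27029783) and one of Length 19303 on chromosome 29 (40815654 to 40907522). The former took 1.85 ± 1.07% of counts in c6186 and 0.921 ± 0.0977% in c9007 (SD), and the latter 1.12 ± 0.259% and 0.606 ± 0.0688% (SD). The former ranged from 0.236% to 2.97% within c6186 and so overlapped with c9007. Without these 2 genes the share was 1.28 ± 0.216% in c6186 and 1.15 ± 0.0590% in c9007, a difference of 0.126 percentage points (exact permutation p = 0.305, adjusted 0.305), and the ovoid IL6 difference was 0.116 points (exact permutation p = 0.279, adjusted 0.305). The tubular IL6 difference was 0.162 points (exact permutation p = 0.171, adjusted 0.305). Tubular minus ovoid was 0.143 points (exact permutation p = 0.0868, adjusted 0.305).

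A second measure gave each long gene equal weight: the median over the 60 genes of log2 CPM minus the gene's own mean. It was 0.28 ± 0.21 in c6186, -0.01 ± 0.11 in c9007 and -0.14 ± 0.19 in controls (SD, n = 6, 4 and 10), and 0 of 4 contrasts passed after adjustment (c6186 against c9007, exact permutation p = 0.0381, adjusted 0.0779). SYNE2 log2 CPM rose with this measure across the 20 libraries, with r = 0.81 and rho = 0.86, and r was 0.78 over the 14 libraries outside c6186. These correlations are descriptions, since the genes share libraries and scaling. In 4 of the 6 c6186 libraries the measure was 0.34 to 0.51, beyond the highest value elsewhere, 0.22 in the shallow control, so SYNE2 can be set beside other libraries at a like value in only 2. These had log2 CPM of 7.52 at -0.06 and 8.57 at 0.115, and the 14 libraries outside c6186 had 5.42 to 6.89. The second of the 2 lay within the range of the others only through the shallow control. Without that control the highest value outside c6186 was 0.104, in tubular IL6 replicate 3. SYNE2 minus the measure, which assumes equal steps of both, was 7.43 to 8.45 in c6186 and 5.78 to 6.79 elsewhere. Per 1000 counts of the other long genes, SYNE2 had 4.27 to 13.7 counts in c6186 and 1.78 to 4.31 elsewhere, which overlapped at the edge.

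**Figure D4:**
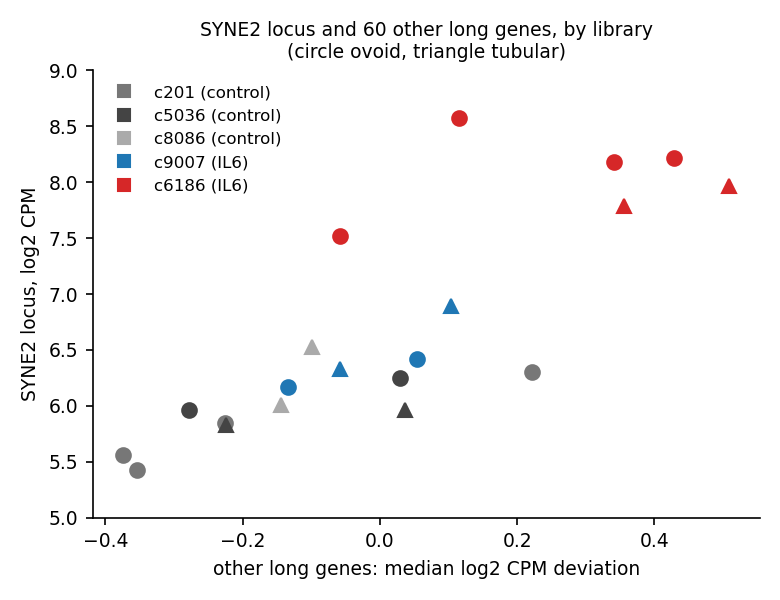
SYNE2 level in log2 CPM (vertical) against the median log2 CPM deviation of 60 other long genes (horizontal) in the 20 libraries, coloured by title code, with circles for ovoid and triangles for tubular conceptuses. SYNE2 rises with the long genes. Of the 6 c6186 libraries (red), 4 lie farther right, at 0.34 to 0.51, than any other library. The 2 within the others' horizontal range lie at 7.52 and 8.57, above the 5.42 to 6.89 of the other 14. The library at 8.57 is within that horizontal range only through the shallow control.

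Separation of c6186 from all other libraries was uncommon but not limited to SYNE2. All 6 c6186 libraries lay above all 14 others for 119 of 14875 genes (0.8%), SYNE2 among them, and below all others for 22 (0.148%). Against the 13 others without the shallow library these counts were 271 (1.82%) and 152 (1.02%). Of the 60 other long genes 2 were above all 14 and 0 below, and without the shallow library 6 were above and 0 below. The 2 above all 14 were a gene of Length 15179 on chromosome 2 (719767 to 951758), at 492 ± 81.7 CPM in c6186 and 287 ± 49.5 CPM elsewhere, and a sparse gene of Length 14379 on chromosome 17 (51794311 to 51952067), at 4.00 ± 0.681 against 1.02 ± 0.553 CPM (SD). The 119 genes had a median Length of 3112 and 39 of them (32.8%) exceeded 4000 bases, against 18.9% of all tested. They lay on 28 chromosomes, 5 of them on chromosome 10, and 18, SYNE2 included, had at least the 1.55-fold gap of SYNE2.

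The genes around the locus had smaller differences. One annotated gene of 59 bases lies inside SYNE2, shares 0 bases with its exons and had 4 counts in all 20 libraries. The next gene after it, 8489 bases away on the minus strand, had at most 10 counts in any library and an averaged IL6 log2 fold change of 0.85 ± 0.51 (SE), and the next before it, 67775 bases away, had 1 count in all. The nearest well-counted neighbour, on chromosome 10 from 75936963 to 75968043, had an averaged IL6 log2 fold change of 0.06 ± 0.20 (SE). Within 1000000 bases on either side, 14 of 27 annotated genes were tested, with a median of 0.12 in the averaged IL6 contrast (12 of 14 positive, range -0.22 to 0.85) and of 0.02 in c6186 over c9007 (range -0.36 to 0.51). Over all tested genes 7369 of 14875 were positive in the averaged contrast, so these neighbours more often leaned in the direction of SYNE2. For 0 of the 14 did c6186 lie above all other libraries, against 0.8% of all tested genes. With so small a share, 14 genes are too few to read anything from that 0. Counting ignored strand, so antisense transcription over SYNE2 exons would be counted as SYNE2.

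Among 12663 genes with an average log2 CPM of 1 or more, the levels most like SYNE2 over the 20 libraries, by Pearson's r of log2 CPM, belonged to genes under the 12000 limit but longer than the median of 2341. ENSBTAG00000021216 (chromosome 4, 77539351 to 77804239, Length 5169) had r = 0.93, with 23.5 ± 8.68 CPM in c6186 and 1.89 ± 1.13 CPM elsewhere (SD, n = 6 and 14). ENSBTAG00000006686 (chromosome 6, 19173926 to 19254856, Length 5989) also had r = 0.93, with 85.1 ± 39.7 and 5.17 ± 4.37 CPM. The tubular IL6 replicate 3 of c9007, highest for SYNE2 outside c6186, was also highest there for both, at 3.81 and 16.4 CPM. The lowest r were -0.92 for ENSBTAG00000009663 (chromosome 5, 98853392 to 98878560, Length 1539; 102 ± 20.3 CPM in c6186 and 204 ± 30.0 elsewhere) and -0.86 for ENSBTAG00000021455 (chromosome 29, 43973108 to 43976493, Length 1072; 388 ± 70.7 and 604 ± 48.7). Outside c6186 (n = 14) these values of r were 0.57, 0.70, -0.71 and -0.61 in the same order. Long genes had a median r with SYNE2 of 0.31 (43 of 60 positive), the median over the 12663 genes was -0.01, and the highest of any long gene was 0.88. Outside c6186 these medians were 0.21 for the long genes and -0.05 over the 12663 genes.

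**Figure D5:**
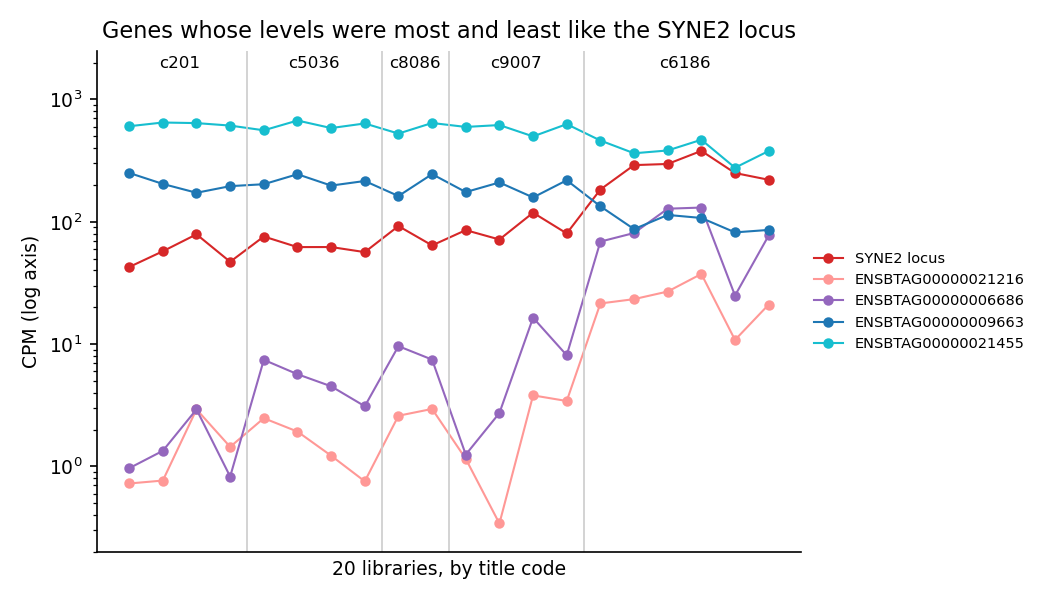
CPM (vertical, log axis) of SYNE2 and the 2 genes with the highest and 2 with the lowest correlation to it, in the 20 libraries ordered by title code (horizontal, 1 point per library). The 2 most like genes rise from means of 1.89 and 5.17 CPM outside c6186 to 23.5 and 85.1 CPM within it, while the 2 least like fall from 204 and 604 CPM to 102 and 388 CPM.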

How the data were processed

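The deposited values are raw counts of fragments per Ensembl gene. Per the file headers, the authors ran featureCounts 2.0.1 unstranded on exons of Ensembl release 105 (ARS-UCD1.2), grouped by gene, after duplicate removal. The submitters' processing notes also list Picard, HISAT2 and SAMtools, with versions not given in the sources used here. The deposited Length, a size in bases with no unit of expression, is that of the merged exons.

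Genes were filtered with filterByExpr in edgeR 4.0.16 (14875 kept; 2831 had 0 counts throughout). A robust quasi-likelihood model with TMM factors, 4 groups and sex was fitted to all 20 libraries, and a model of shape, sex and title code to the 10 IL6 libraries (14338 genes), both adjusted by Benjamini-Hochberg. Intervals are 1.96 SE. CPM use TMM factors, and log2 CPM a prior count of 2. DESeq2 1.42.0, limma 3.58.1 and SciPy 1.17.1 were also used. Models were run on simulated data for shape in controls, sex and c6186 over c9007, and not for the IL6 contrasts. The simulated libraries were independent of each other, so the nesting of treatment within the code was not tested. SYNE2 and the gene lists were chosen with earlier results of these data known. Named genes are SYNE2, the 2 most and 2 least correlated genes and the long genes with the 2 largest differences each way; others given by position were chosen after their values were seen. Lists of symbols could not be used, since 0 of 27607 identifiers matched the gene table. Alternatives were RLE factors, DESeq2, no filter, no sex term, removal of mitochondrial or long genes, each library or title code left out, title code as a random block and Length limits of 8000 and 15000.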

Additional observations from a re-analysis of the deposited data

How the results depend on the processing

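Without title code c6186, the SYNE2 IL6 difference fell from 1.84 to 0.20 in ovoid, from 1.26 to 0.44 in tubular and from 1.55 to 0.32 averaged, and the median of long genes became -0.0687, 0.00627 and -0.00843 in those contrasts; c6186 holds 6 of the 10 IL6 libraries. Leaving out c8086 took the averaged median of long genes from 0.22 to 0.07. For the other alternatives, title code as a random block included (averaged IL6 1.36 ± 0.32, SE), the SYNE2 values kept their direction, and shape and sex stayed above the threshold, although their size moved with single libraries (shape 0.08 to 0.28, sex -0.30 to -0.04). The random block used 1 correlation within codes for all genes (0.148) and not that of SYNE2 itself. Its SE may therefore be too small for SYNE2, and it cannot separate IL6 from the code. With Length over 8000, the share differed by 1.74 percentage points in ovoid IL6 and 1.69 in c6186 minus c9007 (exact permutation, adjusted p = 0.0381 each). With Length over 15000 it differed by 0.603 points in c6186 minus c9007 (adjusted p = 0.0381), and tubular minus ovoid became -0.0576. With each library left out, the ovoid IL6 share difference ran from 0.657 (without ovoid IL6 replicate 2) to 1.25 points, and the tubular one from 0.342 to 1.31, the tubular minus ovoid one from 0.0171 to 0.560 and the averaged median of long genes from 0.10 to 0.37. The lowest of these last 3 came without tubular IL6 replicate 1, and 0.37 came when ovoid control replicate 3 was left out. Where not stated, the cause was not tested. The second share and median measures, the single-library fits of the medians and the Length classes and ratios without a code or the shallow library were chosen after seeing the data. Replicate numbers follow accession order and pair no samples, so no replicate block was fitted; the title code as a random block gave 0.21 ± 0.39 (SE) for shape in controls.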
